A study of Mus musculus with 28 samples.

Results

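The oligodendrocyte lineage and myelin genes described here were 38 genes listed by symbol, from precursor receptors to the proteins of compact myelin. All 38 were present in the gene count tables of both batches with a mean of at least 10 counts per mouse, and all 38 were therefore among the 16266 genes tested, of 49477 genes that the tables share. They lie on 16 chromosomes. RNA was sequenced from bilateral amygdala punches, taken over the basolateral and central nuclei, of 28 adult female C57BL/6J mice that were housed singly. Water mice (*n* = 10) only ever drank water. Acute mice (*n* = 9) had a bottle of 20% ethanol on the last day only, and Chronic mice (*n* = 9) could choose between 20% ethanol and water every other day for 4 weeks, with tissue collected on the following day. The mice formed 2 separate batches, with 4 Water, 4 Acute and 3 Chronic mice in one and 6, 5 and 6 in the other, so every comparison could also be made within a batch. Estimated counts per mouse ran from 20004380 to 22569562, with a median of 20720919.5. In punches of tissue, fewer cells of a type and less RNA per cell cannot be told apart.

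Oligodendrocytes wrap axons in myelin, a compacted membrane that is rich in galactolipids and cholesterol and is held together by a small set of abundant proteins. They arise from precursor cells that carry the PDGF receptor alpha and the NG2 proteoglycan, pass through a committed stage, and then switch on the myelin genes under transcription factors such as SOX10, OLIG2 and MYRF. Precursors persist in the adult brain, so adult tissue holds all stages together.

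Promoter sequences are shown for 3 myelin genes whose levels moved closely together from mouse to mouse and for the precursor receptor gene *Pdgfra*, whose level did not move with them (values below). The windows run from 250 bases before to 50 bases after the RefSeq start of each gene on the GRCm38.p6 mouse assembly and are read on the gene's own strand. *Mog* is on the minus strand at chr17:37023349-37023648, *Mobp* on the plus strand at chr9:120149492-120149791, *Mal* on the minus strand at chr2:127656646-127656945, and *Pdgfra* on the plus strand at chr5:75152001-75152300. Capitals mark matches, on either strand, to the SOX core ACAAAG, the MYRF motif CTGGNAC or the E-box CAGCTG, none of which overlap in these windows.
Mog: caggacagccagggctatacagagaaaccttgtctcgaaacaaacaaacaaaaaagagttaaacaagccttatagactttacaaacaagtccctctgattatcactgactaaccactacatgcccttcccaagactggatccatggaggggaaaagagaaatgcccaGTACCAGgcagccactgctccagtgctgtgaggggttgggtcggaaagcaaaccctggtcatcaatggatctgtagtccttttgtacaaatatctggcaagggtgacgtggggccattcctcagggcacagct
Mobp: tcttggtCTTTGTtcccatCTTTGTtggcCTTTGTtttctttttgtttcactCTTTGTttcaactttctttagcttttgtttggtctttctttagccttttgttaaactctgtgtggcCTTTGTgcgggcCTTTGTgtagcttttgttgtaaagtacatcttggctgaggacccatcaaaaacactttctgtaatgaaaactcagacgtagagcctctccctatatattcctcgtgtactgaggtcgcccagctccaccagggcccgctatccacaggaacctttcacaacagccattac
Mal: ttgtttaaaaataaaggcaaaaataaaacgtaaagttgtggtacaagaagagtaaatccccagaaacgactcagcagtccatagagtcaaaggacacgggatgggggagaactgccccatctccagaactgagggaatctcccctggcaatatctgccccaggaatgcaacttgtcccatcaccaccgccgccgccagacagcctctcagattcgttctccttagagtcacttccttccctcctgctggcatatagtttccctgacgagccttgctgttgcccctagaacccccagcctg
Pdgfra: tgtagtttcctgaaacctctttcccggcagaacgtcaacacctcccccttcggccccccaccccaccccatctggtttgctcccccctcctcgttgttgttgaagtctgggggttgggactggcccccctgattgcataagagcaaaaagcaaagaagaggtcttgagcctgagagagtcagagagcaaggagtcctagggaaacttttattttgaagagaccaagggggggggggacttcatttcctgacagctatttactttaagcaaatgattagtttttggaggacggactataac

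The *Mog* window held 1 match to the MYRF motif, 83 bases before the start. The *Mobp* window held 6 matches to the SOX core, all on the opposite strand and all between 243 and 120 bases before the start. The *Mal* and *Pdgfra* windows held no match to the 3 motifs. RefSeq windows were at hand for 28 of the 38 members, in 39 windows, and 12 of these (30.8%) held a SOX core, against 18.7% of all 32851 windows. The MYRF motif was found in 13 of 39 (33.3%) against 19.3%, and the E-box in 5 of 39 (12.8%) against 16.3%. These are counts of letters and not of bound sites. *Mobp* and *Mal* moved together with a correlation of 0.97, and of their windows only that of *Mobp* held a match. Whether matches and covariation go together was not tested.

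The levels of the 38 genes spanned a wide range in Water mice. On a scale of library-scaled counts (CPM) per kilobase of exon, the most abundant members after *Mbp* were *Car2*, the cytosolic carbonic anhydrase of oligodendrocytes, at 76.4 ± 8.7 (SD, *n* = 10), *Mobp*, which encodes an oligodendrocyte myelin basic protein, at 72.7 ± 10.8, and *Cnp*, a phosphodiesterase of uncompacted myelin, at 70.6 ± 9.2. *Mag*, an adhesion molecule on the membrane next to the axon, was at 33.2 and *Mog*, an immunoglobulin-like protein of the outer myelin surface, at 13.2 ± 2.0. Of the transcription factors, *Olig1* stood at 42.9 ± 3.6, *Sox10* at 14.9 ± 1.5 and *Myrf* at 7.01. The precursor gene *Pdgfra* was level with *Myrf* at 6.99 ± 0.43, and *Cspg4*, the NG2 proteoglycan, was at 3.05. *Enpp6*, a choline phosphodiesterase of newly formed oligodendrocytes, was lowest at 0.89 ± 0.19. Of 37 neighbouring pairs in this order, 27 lay closer together than the larger of their SDs.

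*Mbp*, myelin basic protein, was counted very differently in the 2 batches. In Water mice it stood at 9.43 CPM per kb in one batch, the first, and at 153 in the second, a difference of 4.02 on the log2 scale. With its sign kept (second minus first), this difference was higher than that of 99.7% of genes tested. The next largest gap among the members was 0.59 for *Nkx6-2*, and all others lay between -0.24 (*Car2*) and 0.31 (*Ppp1r14a*), with a median over members of 0.07. What lies behind the *Mbp* gap was not tested, and its level relative to other members is therefore uncertain. In addition, 20 members overlap another annotated gene (for example *Cnp* with *Dnajc7*, *Cryab* with *Hspb2*, *Nkx6-2* with *Inpp5a* and *Mobp* with a predicted gene), and a division of reads between such genes makes their counts less certain.

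To ask whether 1 day or 4 weeks of ethanol drinking changed these genes, each ethanol group was compared with Water mice over both batches, with batch as a covariate, and the 2 ethanol groups with each other. The Acute and Chronic comparisons share the same Water mice. No member passed an adjusted *p* of 0.05 in edgeR's quasi-likelihood test with Benjamini-Hochberg adjustment in any of the 3 comparisons. Over all genes tested by edgeR, 0% were called in Acute against Water, 0.0184% (3 genes) in Chronic against Water, and 0% in Chronic against Acute. Among the members, the lowest adjusted *p* was 0.514 for Acute against Water, 0.502 for Chronic against Water and 0.998 for Chronic against Acute. DESeq2 also called 0 members, against 9 of all genes (0.0553%) in Acute and 38 (0.234%) in Chronic against Water, with an adjusted *p* for 31 of the 38 members in both. ComBat-seq followed by DESeq2 called 0 members as well, against 30 genes (0.184%) and 88 (0.54%), with an adjusted *p* for 38 and 30 members. Neither called a gene between Chronic and Acute mice. The standard errors of the members' log2 fold changes had a median of 0.10 in both comparisons with Water. For none of the 38 genes were the mice of any 2 groups fully apart, and how often this holds over all genes was not counted.

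At an unadjusted *p* under 0.05, 1 member (*Olig1*, 2.63%) was higher in Acute mice, against 9.52% of all genes tested in either direction. None was past that value in Chronic mice, against 10.5% of all genes, and none between the 2 ethanol groups, against 4.44%. The members' shares were thus below the background in all 3 comparisons. The fold changes leaned to one side instead: 32 of 38 were above 0 in Acute mice, against 50.6% of all genes, with a median log2 fold change of 0.09 over members and 0.00 over all genes. In Chronic mice 32 of 38 were above 0, against 51% of all genes, with a median of 0.05. Between Chronic and Acute mice 12 of 38 were above 0, against 49.4% of all genes, with a median of -0.02. Because the members moved together from mouse to mouse, these counts do not stand for 38 separate observations.

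The 12 genes for proteins of the myelin membrane and its junctions had a median log2 fold change of 0.12 in Acute and 0.08 in Chronic mice, with 0.36 and 0.32 in the first batch alone and -0.01 and -0.04 in the second. *Mog* ran from 346.5 to 570.0 normalized counts in Water mice (median 467.9), from 387.4 to 865.3 in Acute mice (median 522.8) and from 346.9 to 662.0 in Chronic mice (median 497.0). The 3 groups overlapped over most of their range, and the highest value came from an Acute mouse of the first batch. Its log2 fold change was 0.21 (SE 0.12) in Acute mice, with an unadjusted *p* of 0.0953 and an adjusted *p* of 0.594 in edgeR, and 6 of 9 Acute mice were above the Water mean (on log2 CPM with batch means removed, as for all such counts). Without Acute mouse 33 it was 0.12. *Cldn11*, the claudin of the tight junctions between myelin layers, ran from 1117.7 to 1870.3 in Water mice (median 1542.8), from 1372.3 to 2827.4 in Acute mice (median 1682.8) and from 1226.6 to 2069.7 in Chronic mice (median 1542.9). The Acute median was the highest of the 3, at a log2 fold change of 0.19 (SE 0.11, unadjusted *p* = 0.0805), but only 5 of 9 Acute mice were above the Water mean and the value was 0.11 without Acute mouse 33.

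*Mobp* ran from 5312.6 to 8496.4 in Water mice (median 7067.6), from 6010.5 to 13039.3 in Acute mice (median 7070.9) and from 5494.9 to 9711.0 in Chronic mice (median 6772.8). *Cnp* ran from 2456.8 to 3880.8 (median 3547.9), from 3037.3 to 5297.6 (median 3483.4) and from 3076.0 to 4443.9 (median 3609.9) in the same order of groups. For both genes the group medians lay within the Water range and the highest value was again an Acute mouse of the first batch. The log2 fold changes in Acute mice were 0.15 (SE 0.12) for *Mobp* and 0.12 (SE 0.09) for *Cnp*, and 0.04 and 0.05 without Acute mouse 33. *Ermn*, a cytoskeletal protein of the myelin sheath, ran from 631.2 to 943.0 in Water mice (median 716.8), from 616.6 to 1506.2 in Acute mice (median 758.2) and from 512.5 to 1071.8 in Chronic mice (median 700.4). *Pllp*, the small membrane protein plasmolipin, ran from 509.4 to 791.3 in Water mice (median 687.9), from 591.6 to 972.1 in Acute mice (median 731.9) and from 567.9 to 892.6 in Chronic mice (median 718.3). Its log2 fold change of 0.12 in Chronic mice had an unadjusted *p* of 0.182 and was 0.07 without Water mouse 43. Again the groups overlapped throughout. Of the other membrane genes, *Mal*, a raft protein of compact myelin, was at 0.19 in Acute and 0.10 in Chronic mice, the tetraspanin *Tspan2* at 0.12 and 0.06, *Gjb1*, the gap junction protein of myelin, at 0.12 and 0.10, and *Plekhb1* at 0.09 and 0.08.

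*Mag* ran from 1088.6 to 2076.3 in Water mice (median 1705.0), from 1372.3 to 2413.6 in Acute mice (median 1679.7) and from 1409.4 to 2330.0 in Chronic mice (median 1733.7). Its log2 fold changes over both batches were 0.08 in Acute mice and 0.08 in Chronic mice (SE 0.11 for both), but these means joined opposite directions, as described below, and both were 0.02 without Water mouse 43. *Mbp* has to be read within a batch. In the first batch it lay between 1489 and 1740 in Water mice, between 1351 and 1508 in Acute mice and between 1475 and 1673 in Chronic mice. In the second batch it lay between 22743 and 30064, between 21825 and 30638 and between 21058 and 28363. Its log2 fold change was -0.08 (SE 0.06) in Acute mice, with 7 of 9 mice below the Water mean, and -0.06 (SE 0.06) in Chronic mice. Neither passed the test (unadjusted *p* = 0.195 and 0.310), and the Acute value was -0.14 without Acute mouse 4 of the second batch and the Chronic value -0.03 without Water mouse 6.

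**Figure D1:**
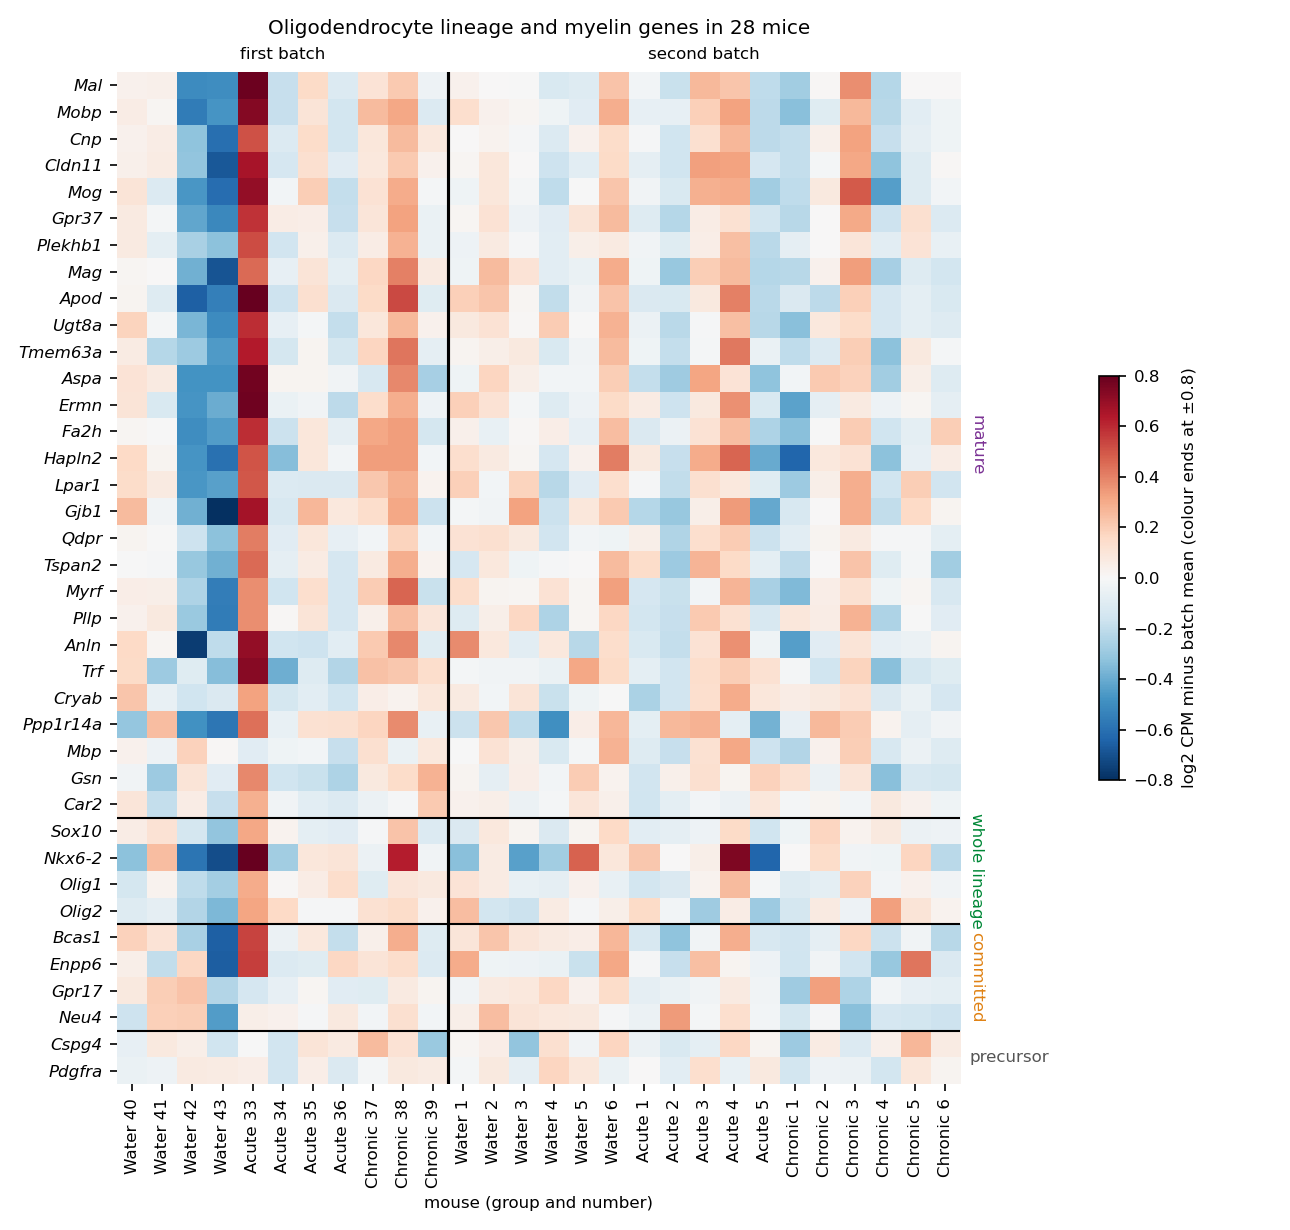
Heat map of the 38 genes (rows, grouped by stage and ordered by likeness to the mature mean) in each of 28 mice (columns, by batch, group and number). Colour gives log2 CPM minus the batch mean, red above and blue below, with the scale ending at ±0.8; Water mice 42 and 43 are blue and Acute mouse 33 red for most mature genes.

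The 7 genes for lipid and metabolic enzymes and carriers had a median log2 fold change of 0.08 in Acute and 0.04 in Chronic mice. These joined opposite directions, since all 7 were above 0 in both ethanol groups of the first batch (medians 0.26 and 0.28) and all 7 below 0 in those of the second (both medians -0.06). *Car2* ran from 2502.1 to 3444.9 in Water mice (median 2719.3), from 2313.1 to 3920.7 in Acute mice (median 2758.7) and from 2526.0 to 3733.6 in Chronic mice (median 2656.3), with no shift of the group medians beyond the spread between mice. *Ugt8a* and *Fa2h*, which make and hydroxylate the galactolipids of myelin, had log2 fold changes of 0.02 and 0.12 in Acute mice. *Apod*, a lipid carrier, was at 0.18, and *Aspa*, which frees acetate from N-acetylaspartate, at 0.12. *Trf*, the iron carrier transferrin, was at 0.07 and *Qdpr*, which regenerates tetrahydrobiopterin, at 0.08. None of the 7 passed an unadjusted *p* of 0.05 over both batches.

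The 5 transcription factors had a median log2 fold change of 0.09 in Acute and 0.06 in Chronic mice, with 0.27 and 0.29 in the first batch alone and -0.05 and 0.01 in the second. *Olig1*, a basic helix-loop-helix factor of the whole lineage, ran from 1643.2 to 2150.1 normalized counts in Water mice (median 1918.5), from 1799.5 to 2434.3 in Acute mice (median 2032.7) and from 1855.4 to 2268.1 in Chronic mice (median 1966.9). It was higher in Acute mice by a log2 fold change of 0.12 (SE 0.06), with 7 of 9 mice above the Water mean, an unadjusted *p* of 0.0456 and an adjusted *p* of 0.514 in edgeR. Within the first batch it was 0.27 (unadjusted *p* = 0.0045) and within the second 0.00 (unadjusted *p* = 0.996). Without Acute mouse 33 of the first batch the value over both was 0.08 with an unadjusted *p* of 0.129. *Olig2*, its partner in specifying the lineage, ran from 428.5 to 605.8 in Water mice (median 509.9), from 417.3 to 686.7 in Acute mice (median 546.4) and from 462.6 to 641.2 in Chronic mice (median 548.8). In Chronic mice its log2 fold change was 0.15 (SE 0.08), with 8 of 9 mice above the Water mean and an unadjusted *p* of 0.0600, the smallest of the members in that comparison.

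*Nkx6-2*, a homeobox factor of oligodendrocytes, had the largest fold change and the largest spread. It ran from 74.4 to 214.2 in Water mice (median 123.9), from 98.2 to 259.6 in Acute mice (median 153.6) and from 118.9 to 190.9 in Chronic mice (median 150.9). The log2 fold change in Acute mice was 0.34 (SE 0.17, unadjusted *p* = 0.0566, adjusted *p* = 0.533 in edgeR), and 7 of 9 mice were above the Water mean. Without Acute mouse 33 it was 0.22. *Sox10*, which drives the lineage and the myelin genes, ran from 683.6 to 981.0 in Water mice (median 891.4), from 786.5 to 1059.2 in Acute mice (median 836.1) and from 790.1 to 999.7 in Chronic mice (median 857.9). *Myrf*, the membrane-bound factor that starts and maintains myelin gene expression, ran from 568.8 to 1015.9 (median 841.3), from 674.5 to 1080.7 (median 760.2) and from 632.7 to 1152.0 (median 817.5) in the same order. The ethanol medians of both genes lay just below the Water medians, while their fitted log2 fold changes were within 0.05 of 0 (*Sox10* 0.02 and 0.05, *Myrf* -0.01 and 0.03 in Acute and Chronic mice).

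The 2 precursor genes hardly differed between groups. *Pdgfra* ran from 1157.1 to 1367.2 in Water mice (median 1270.3), from 1144.4 to 1339.6 in Acute mice (median 1217.5) and from 1094.4 to 1368.1 in Chronic mice (median 1232.6). *Cspg4* ran from 416.2 to 612.1 in Water mice (median 512.9), from 417.1 to 611.7 in Acute mice (median 500.0) and from 377.7 to 655.4 in Chronic mice (median 553.4). The log2 fold changes of *Pdgfra* were -0.03 and -0.04 (SE 0.04 for both), and those of *Cspg4* were 0.00 and 0.03 (SE 0.07 in Acute mice).

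Of the committed-stage genes, *Gpr17* lay below the Water mean in nearly every ethanol mouse, though mostly within the range of the Water mice. This receptor of committed precursors, whose activity holds back myelination, ran from 1099.8 to 1664.0 in Water mice (median 1517.7), from 1178.5 to 1556.4 in Acute mice (median 1409.7) and from 1211.0 to 1856.7 in Chronic mice (median 1363.6). All 9 Acute mice and 8 of 9 Chronic mice were below the Water mean. The log2 fold change was -0.12 (SE 0.06, unadjusted *p* = 0.0524, adjusted *p* = 0.529 in edgeR) in Acute mice and -0.11 (SE 0.06, unadjusted *p* = 0.0719, adjusted *p* = 0.518) in Chronic mice. *Gpr17* was 1 of 3 members that were lower than Water in both batches in Acute mice (-0.15 and -0.10) and the only member to be so in Chronic mice (-0.08 and -0.13). The share of all genes lower in both batches was not counted, so these counts do not mark *Gpr17* out. Its second-batch counts were 1450.4, 1559.9, 1569.1, 1664.0, 1517.4 and 1640.7 in Water mice, 1409.7, 1428.7, 1454.2, 1556.4 and 1455.7 in Acute mice, and 1214.5, 1856.7, 1248.0, 1462.0, 1414.4 and 1401.1 in Chronic mice. Chronic mouse 2 was the highest of the batch, and the other 5 Chronic mice were within or below the Water range.

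*Neu4*, a sialidase, ran from 127.1 to 199.3 in Water mice (median 159.8), from 146.0 to 191.3 in Acute mice (median 172.5) and from 119.0 to 190.0 in Chronic mice (median 137.3). Its log2 fold change in Chronic mice was -0.13 (SE 0.08, unadjusted *p* = 0.0904), and against Acute mice it was -0.15 (SE 0.08, unadjusted *p* = 0.0586, adjusted *p* = 0.998 in edgeR), with 8 of 9 Chronic mice below the Acute mean. By batch the latter was -0.00 in the first and -0.24 in the second. The second-batch Chronic counts were 136.5, 149.6, 119.0, 137.3, 135.9 and 134.3, and the Water counts were 155.7, 179.7, 162.3, 160.0, 159.6 and 150.1. All 6 Chronic mice of that batch lay below all 6 Water mice there, by a narrow margin (149.6 against 150.1). How many of all genes separate in this way was not counted. The log2 fold change within the batch was -0.25 (unadjusted *p* = 0.0053 in edgeR), in a fit where 13.4% of all genes were under 0.05. In the first batch the difference was 0.06. *Enpp6* ran from 73.4 to 132.0 in Water mice (median 92.9), from 75.3 to 173.2 in Acute mice (median 101.8) and from 69.2 to 129.7 in Chronic mice (median 84.0), with a log2 fold change of 0.10 (SE 0.11) in Acute and 0.01 in Chronic mice, the former 0.02 without Acute mouse 33. *Bcas1*, which marks oligodendrocytes that are just starting to myelinate, was at -0.01 and -0.06.

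The 3 receptor and channel genes were *Gpr37*, an orphan receptor, *Lpar1*, a receptor for lysophosphatidic acid, and *Tmem63a*, a mechanically gated channel. They had log2 fold changes between 0.06 and 0.14 in Acute mice and between 0.08 and 0.11 in Chronic mice over both batches. All 3 were above 0 in both ethanol groups of the first batch (medians 0.34 and 0.33) and below 0 in those of the second (medians -0.05 and -0.06). Among the 5 genes for matrix, chaperone and cytoskeletal proteins, *Ppp1r14a*, an inhibitor of myosin phosphatase, was above the Water mean in all 9 Chronic mice. It ran from 64.97 to 124.7 in Water mice (median 90.7), from 79.0 to 133.7 in Acute mice (median 106.7) and from 94.0 to 127.9 in Chronic mice (median 105.3), so the highest Water mice reached into the ethanol range. The log2 fold change was 0.22 in Chronic mice (SE 0.12, unadjusted *p* = 0.0741, adjusted *p* = 0.524 in edgeR) and 0.21 in Acute mice, with 0.43 and 0.42 in the first batch alone and 0.09 and 0.05 in the second. *Hapln2*, a link protein of the nodal matrix, *Cryab*, a small heat shock protein, *Gsn*, the actin-severing gelsolin, and *Anln*, a septin partner, were between 0.02 and 0.10 in Acute mice. The 5 genes had medians of 0.28 in Acute and 0.34 in Chronic mice of the first batch and of 0.01 and -0.10 in those of the second.

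A further 34 oligodendrocyte genes that are not members gave a like picture. At an unadjusted *p* under 0.05, 2 were higher and 1 was lower in Acute mice, and the same numbers held in Chronic mice, with medians of 0.04 and 0.02. These 3 of 34 were 8.82% in each comparison, no more than the 9.52% and 10.5% of all genes, and the genes named next are those with the smallest *p* in each direction. *Tubb4a*, a tubulin of myelinating cells, had the smallest *p* of these in Chronic mice, with a log2 fold change of 0.12 (SE 0.04, unadjusted *p* = 0.0031, adjusted *p* = 0.241 in edgeR). Its level did not follow the mature members from mouse to mouse (correlation with their mean -0.19, and -0.38 and -0.02 by batch). *Gpr62*, a receptor of mature oligodendrocytes, was at 0.19 in Acute mice (SE 0.08, adjusted *p* = 0.492). *Ptprz1*, a receptor phosphatase of precursors that astrocytes also carry, was at -0.10 in Acute mice (SE 0.04, adjusted *p* = 0.501) and at -0.09 in Chronic mice (adjusted *p* = 0.443). Between Chronic and Acute mice, *Sox17* was at 0.24 (SE 0.11, unadjusted *p* = 0.0397, adjusted *p* = 0.998) and *Slc44a1*, a choline transporter, at -0.07, which became -0.03 without Acute mouse 33. In that comparison 2.94% of the 34 genes were under an unadjusted *p* of 0.05 in edgeR, against 4.44% of all genes. The correlation of *Sox17* with the mature mean was 0.65 in the first and -0.02 in the second batch.

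The 2 batches gave different pictures when each was fitted alone. In the first batch 35 of 38 members were above 0 in Acute against Water (49.5% of all genes) and 37 of 38 in Chronic against Water (49.1% of all genes), with median log2 fold changes of 0.28 and 0.30. In the second batch only 10 of 38 were above 0 in Acute mice (50.4% of all genes) and 7 of 38 in Chronic mice (50.5% of all genes), with medians of -0.02 and -0.06. At an unadjusted *p* under 0.05, 6 members (*Apod*, *Mag*, *Mog*, *Olig1*, *Olig2* and *Ppp1r14a*) were higher and *Mbp* was lower in the Acute mice of the first batch, 18.4% of members against 7.21% of all genes. In the Chronic mice of that batch *Mag* and *Olig2* were higher, 5.26% against 3.52%. In the second batch *Bcas1* was lower in Acute mice, 2.63% against 5%, and *Bcas1*, *Neu4* and *Ugt8a* were lower in Chronic mice, 7.89% against 13.4%.

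The difference between the batches was itself tested as an interaction of group and batch. No member passed an adjusted *p* of 0.05 in edgeR, where the lowest was 0.999 in the Acute comparison and 0.756 in the Chronic one, and over all genes 0% and 0.00615% (1 gene) did. At an unadjusted *p* under 0.05, 10 members had a lower fold change in the second batch than in the first in Acute mice, 26.3% against 4.13% of all genes, and none a higher one. In Chronic mice 15 members did, 39.5% against 6.15% of all genes, again all lower. The fold change of the second batch was below that of the first for 34 of 38 members in Acute and for all 38 in Chronic mice, with median differences of -0.32 and -0.35. *Mag* differed by -0.45 in Acute and by -0.59 in Chronic mice (unadjusted *p* = 0.0346 and 0.00781), and *Olig2* by -0.39 in Acute mice (unadjusted *p* = 0.00915). Since the members move together, and since the Acute and Chronic values rest on the same Water mice, these counts too are not separate observations.

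**Figure D2:**
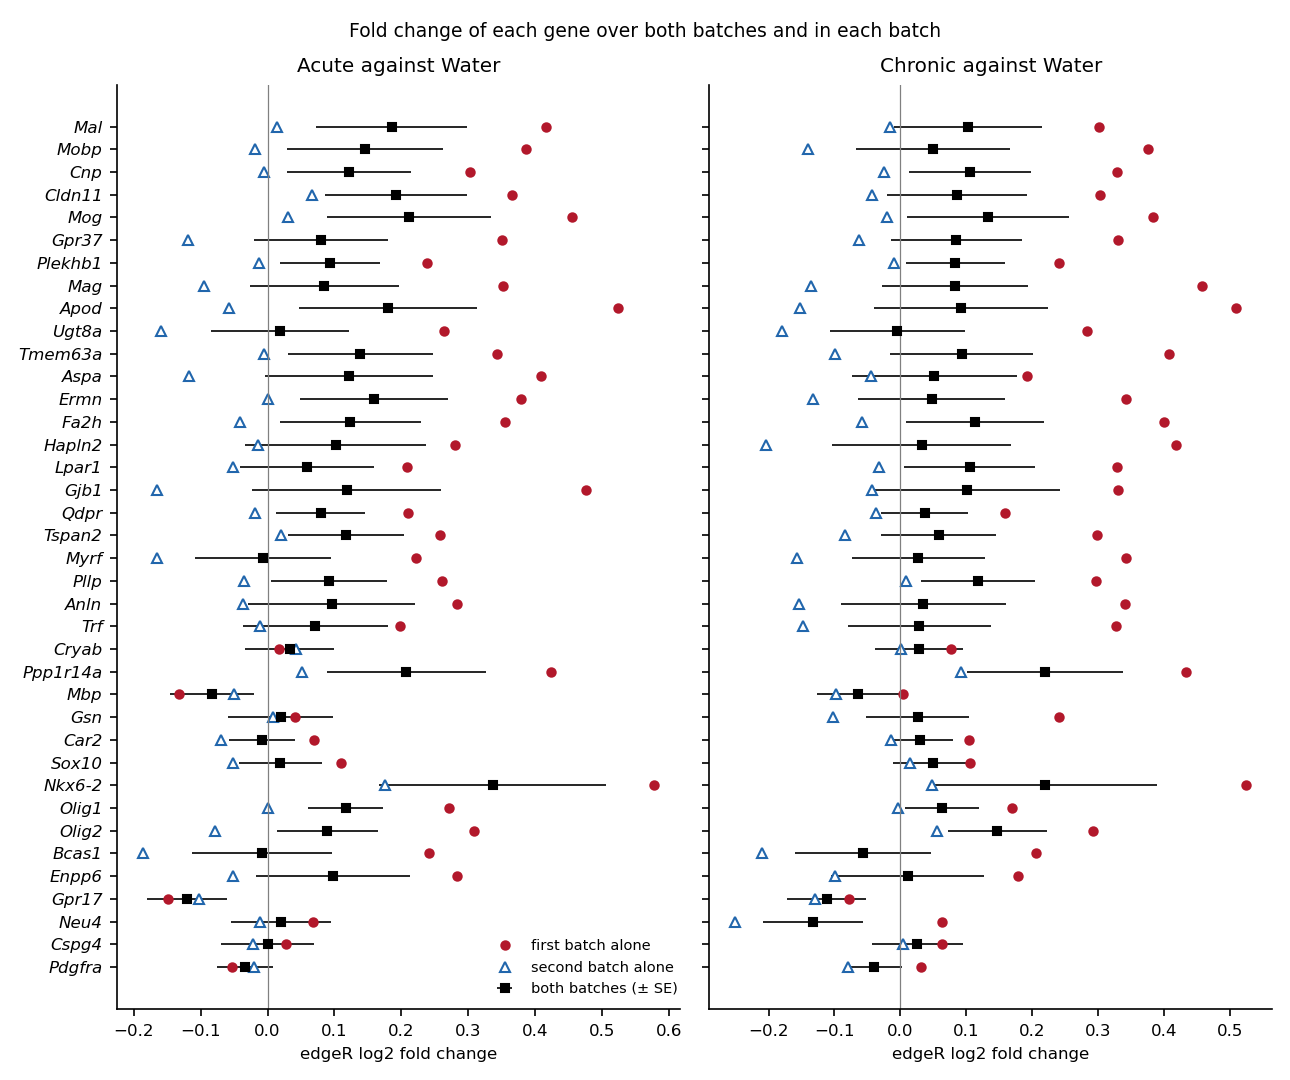
EdgeR log2 fold change of each of the 38 genes against Water mice, with Acute mice in the left and Chronic mice in the right panel. Black squares with bars give both batches ± SE, red circles the first batch alone (medians 0.28 and 0.30) and open blue triangles the second batch alone (medians -0.02 and -0.06).

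The values of single mice of the first batch follow, and no fit of that batch alone left a mouse out. *Mog* was counted at 570.0, 492.4, 383.0 and 346.5 in Water mice 40 to 43 of the first batch, at 865.3, 522.8, 608.6 and 463.7 in Acute mice 33 to 36, and at 576.2, 652.1 and 524.6 in Chronic mice 37 to 39. Water mice 42 and 43 were the lowest of the batch and Acute mouse 33 the highest. *Mag* gave 1779.8, 1759.0, 1349.2 and 1088.6 in the same Water mice, 2413.6, 1679.7, 1886.0 and 1663.7 in the Acute mice, and 1973.8, 2330.0 and 1850.4 in the Chronic mice. *Mobp* gave 8175.3, 7919.5, 5312.6 and 5650.9, then 13039.3, 6911.6, 8440.0 and 7070.9, then 9367.0, 9711.0 and 7267.3. The same 3 mice stood at the ends for all 3 genes. *Mog* showed no such split in the second batch, where Water mice spanned 409.1 to 549.7, Acute mice 387.4 to 579.8 and Chronic mice 346.9 to 662.0.

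The mean over the 28 members of the mature stage, as log2 CPM with the batch mean removed, was -0.34 in Water mouse 42 and -0.45 in Water mouse 43, against 0.07 and -0.03 in the other 2 Water mice of the first batch. Acute mouse 33 stood at 0.54, and the other Acute mice of that batch at -0.12, 0.05 and -0.12. Chronic mouse 38 was the highest of its group at 0.27. Over the second batch the same mean stayed between -0.19 and 0.23 in all 17 mice. Without Acute mouse 33 the median log2 fold change of the 38 members in Acute mice over both batches went from 0.09 to 0.02, and without Water mouse 43 it went to 0.04. In Chronic mice the median went from 0.05 to 0.02 without Water mouse 43 and likewise to 0.02 without Chronic mouse 38. Between Chronic and Acute mice it turned from -0.02 to 0.04 without Acute mouse 33.

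**Figure D3:**
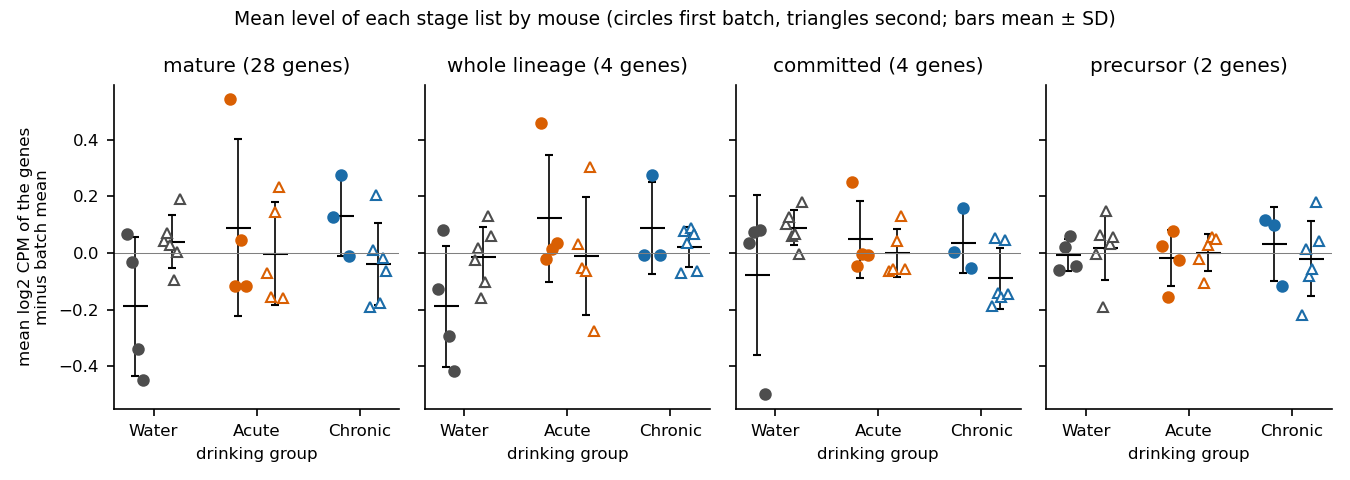
Mean of the members of each stage in each mouse (log2 CPM minus the batch mean) by drinking group, with circles for the first batch, triangles for the second, and bars for the mean ± SD. The mature mean runs from -0.45 (Water mouse 43) to 0.54 (Acute mouse 33) in the first batch and from -0.19 to 0.23 over the second.

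Beyond the groups, the levels of the mature members went up and down together from mouse to mouse. For this, the mean of each group in each batch was removed from log2 CPM, so that differences between groups or batches do not enter. Over the 28 mice the correlation (Pearson *r*) between pairs of members had a median of 0.61 (jackknife SE over mice 0.10), and over pairs of mature members a median of 0.77 (SE 0.08), with 60.1% of pairs above 0.7. Pairs drawn from every eighth gene tested had a median of 0.00, with 0.274% above 0.7. The first principal component took 61.1% of the variance of the 38 members, against 14.3% over all genes, and all 38 had loadings of one sign. Fitted by batch, 37 had that sign in the first, where *Mbp* did not, and 35 in the second, where *Car2*, *Olig2* and *Neu4* did not. The points share their library and its scaling, and these values describe these 28 mice.

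The correlations are given by stage, with no test between stages. Pairs of a mature member with *Sox10*, *Olig1*, *Olig2* or *Nkx6-2*, the 4 factors listed for the whole lineage, had a median *r* of 0.59 (jackknife SE 0.14). With a committed-stage gene the median was 0.29 (SE 0.12), and with *Pdgfra* or *Cspg4* it was 0.15 (SE 0.17), with 0% of pairs above 0.7. The last of these was 0.06 without Acute mouse 33. Taken as list means, the whole-lineage genes had an *r* of 0.76 with the mature mean, the committed-stage genes, of which *Bcas1* is 1, had 0.68, and the precursor genes 0.24. By batch these were 0.90 and 0.55, 0.73 and 0.59, and 0.33 and 0.20, and as Spearman's rho the first 2 were both 0.71. Against the mean of the other mature members, *Mal* reached 0.97, *Mobp* and *Cnp* 0.96 and *Cldn11* and *Mog* 0.95, and 24 of the 28 mature members were above 0.7. The exceptions were *Ppp1r14a* at 0.58, *Mbp* at 0.44, *Gsn* at 0.33 and *Car2* at 0.32. *Mbp* reached 0.97 in the second batch but -0.26 in the first, where its counts were low. *Bcas1*, listed with the committed stage, moved with the mature members at 0.92, while *Gpr17*, *Pdgfra* and *Neu4* stood at 0.15, 0.09 and 0.04.

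**Figure D4:**
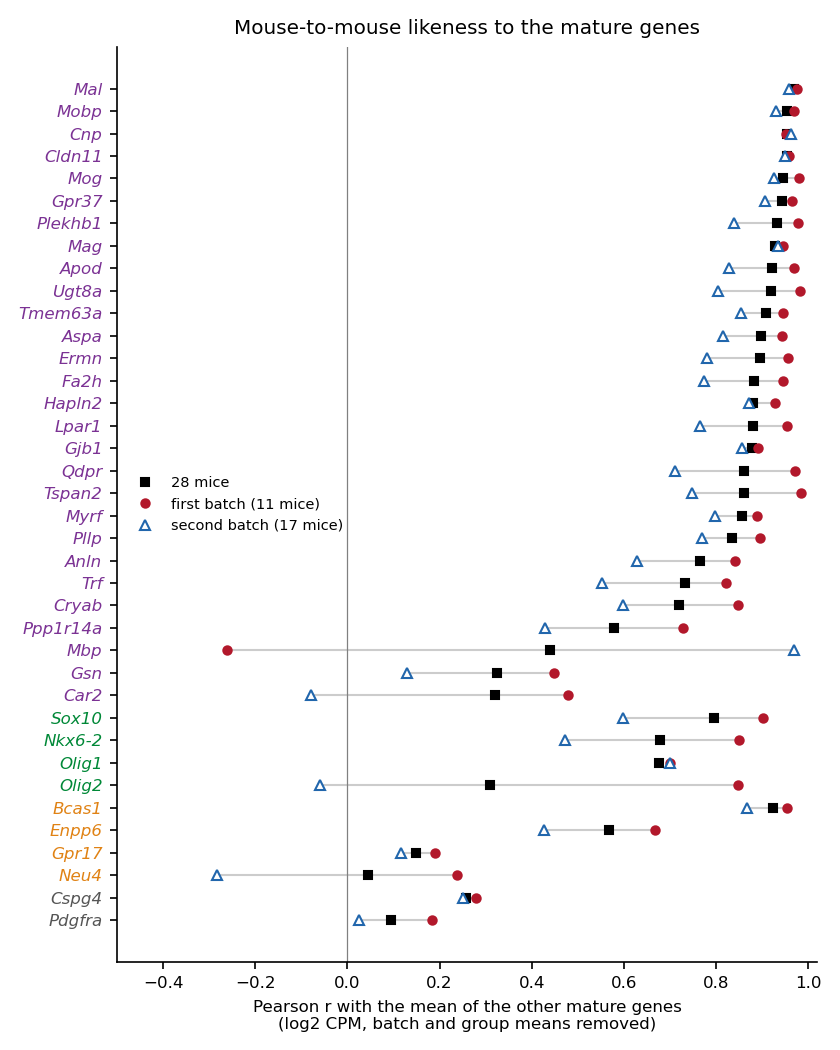
Pearson correlation of each of the 38 genes with the mean of the other mature members (log2 CPM, batch and group means removed), over 28 mice (black squares), the 11 mice of the first batch (red circles) and the 17 of the second (open blue triangles). Name colours give the stage: mature purple, whole lineage green, committed orange and precursor grey; 24 of 28 mature genes are above 0.7 over all mice, and *Gpr17*, *Pdgfra* and *Neu4* lie near 0.

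The spread between mice also differed among the members. *Nkx6-2* varied most, with an SD of 0.39 on the log2 scale, and *Pdgfra* least, with an SD of 0.09. Among genes of a like count, the SDs of *Mal*, *Mobp* and *Apod* were above those of 98.2%, 98.2% and 98.0% of genes, that of *Pdgfra* above 54.2% and that of *Neu4* above 39.4%. In all, 20 of 28 mature members were more variable than 90% of genes of like count. The median SD of the mature members came to 0.29 for the first and 0.18 for the second batch, where that of all genes was 0.13 and 0.14. *Cnp* had the highest mean *r* with the other members (0.70) and *Pdgfra* the lowest (0.07).

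Of the pairs of named members, 11 were tested by permutation of the mice within group and batch, with Benjamini-Hochberg adjustment over the 11. *Mog* and *Mag* gave *r* = 0.93 (Spearman's rho 0.94, permutation *p* = 1e-05, the smallest that the permutations can give, adjusted *p* = 3.67e-05), and 0.91 without the 2 mice farthest from the median. *Mog* and *Cnp* gave 0.95 (rho 0.95), *Mog* and *Mobp* 0.90 (rho 0.88), *Mog* and *Myrf* 0.77 (rho 0.78) and *Mog* and *Sox10* 0.70 (rho 0.70). Without the 2 farthest mice the other values were 0.93 for *Cnp*, 0.87 for *Mobp*, 0.75 for *Myrf* and 0.72 for *Sox10*. Within the first and second batch they were 0.94 and 0.92 for *Mag*, 0.96 and 0.96 for *Cnp*, 0.95 and 0.88 for *Mobp*, 0.88 and 0.64 for *Myrf*, and 0.87 and 0.49 for *Sox10*.

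*Mog* and *Mbp* gave 0.53 (rho 0.49, permutation adjusted *p* = 0.00731), with 0.87 within the second batch against -0.15 within the first. *Mog* was not found to move with *Gpr17* (*r* = 0.09, rho 0.09, permutation *p* = 0.707) or with *Pdgfra* (*r* = 0.10, rho 0.12, permutation *p* = 0.647). Without the 2 farthest mice these became 0.34 and 0.01, so the value with *Gpr17* rests in part on Acute mouse 33 and Chronic mouse 3 of the second batch. The pair of precursor genes, *Pdgfra* and *Cspg4*, gave 0.28 (rho 0.27, permutation adjusted *p* = 0.240), and 0.13 without the 2 farthest mice, with -0.01 within the first batch and 0.43 within the second. *Gpr17* and *Neu4*, both of the committed stage, gave 0.61 (rho 0.45, permutation adjusted *p* = 0.00731 for *r* and 0.0553 for rho), at 0.88 within the first batch and 0.38 within the second. Without Water mouse 43 it was 0.41, with a permutation adjusted *p* of 0.0544. *Olig1* and *Olig2* gave 0.21 (rho 0.16, permutation adjusted *p* = 0.442), and 0.62 and 0.03 by batch.

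**Figure D5:**
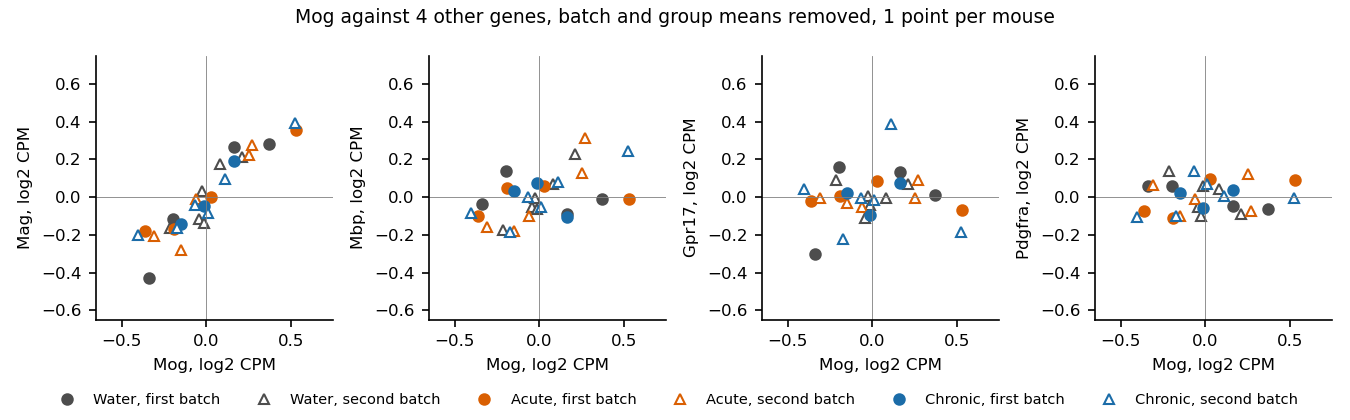
*Mog* (horizontal axis) against *Mag*, *Mbp*, *Gpr17* and *Pdgfra* (vertical axes) in each of 28 mice, as log2 CPM with the batch and group means removed. Colours give the group, filled circles the first batch and open triangles the second; *Mag* follows *Mog* (*r* = 0.93), *Mbp* does so in the second batch, and *Gpr17* and *Pdgfra* show little relation to it (*r* = 0.09 and 0.10).

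Of the 16228 tested genes that are not members, 251 had an *r* above 0.7 with the mature mean and 284 one below -0.7. Among the closest were *Tmem88b* at 0.97, *Ttyh2* at 0.95, *Sept4* at 0.94, *Prr18* and *Galnt6* at 0.93, *Mcam* and *Gatm* at 0.92 and *Litaf* at 0.91. The most opposite were *Faah*, which breaks down endocannabinoids, at -0.94, *Chrd* and *Nptxr* at -0.92, and *Cpne6* and *Zbtb18* at -0.91. Of the 34 other oligodendrocyte genes, 14 were above 0.7, with a median of 0.59 and *Sox8* the lowest at -0.26.

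Markers of other cells and of neighbouring regions moved with the mature members as well, and their part in the covariation and in the first-batch lean was not tested. The 8 genes of a striatal list all had an *r* above 0 with the mature mean, from 0.43 to 0.70, and their list mean had 0.58 (0.62 for the first and 0.52 for the second batch). That list mean was lowest, at -1.30 and -1.26 on the log2 scale, in Water mice 42 and 43, the mice with the lowest mature mean, and stood at 0.89 in Water mouse 40. Summed, the striatal genes came to 494 to 1925 CPM in Water mice, 927 to 1919 in Acute mice and 668 to 1729 in Chronic mice (medians 1481, 1385 and 1046). The striatal list mean was -0.28, 0.32 and -0.05 in Water, Acute and Chronic mice of the first batch. In the second batch it was 0.18, 0.11 and -0.27. All 10 endothelial genes were also above 0, from 0.10 to 0.64, with 0.68 for their list mean (0.82 and 0.44 by batch). Of 10 neuronal genes 3 were above 0: *Slc17a7*, the vesicular glutamate transporter of cortical and basolateral neurons, was at -0.88 and *Gad2*, a GABA-synthesising enzyme, at 0.83. All 9 choroid plexus genes were below 0. The list means of astrocytes, microglia and mural cells had 0.39, 0.15 and 0.08. By batch these were 0.68 and 0.15 for astrocytes, -0.25 and 0.40 for microglia and 0.54 and -0.39 for mural cells, so the last 2 lists had opposite signs in the 2 batches. The neuronal list mean had -0.42 (-0.71 and 0.10 by batch) and the choroid plexus list mean -0.25 (0.10 and -0.50 by batch). That of Schwann cells, the myelinating cells of peripheral nerve, had 0.32 from 3 genes (0.27 and 0.39 by batch).

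Summed levels of the marker lists overlapped between groups. The mature members summed to 1599 to 3495 CPM in Water, 1937 to 3602 in Acute and 2153 to 3457 in Chronic mice, a range that *Mbp* and its batch gap widen, and the precursor genes to 77 to 95, 76 to 89 and 74 to 94. Endothelial genes summed to 177 to 210, 189 to 211 and 192 to 204 and neuronal genes to 6523 to 7888, 6518 to 7776 and 6626 to 7787. Choroid plexus genes ran from 29 to 4033, from 20 to 3575 and from 19 to 4318, a spread within each group far wider than any gap between groups.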

How the data were processed

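Bulk RNA of the amygdala was sequenced from 28 mice on a BGISEQ-500 instrument with paired-end reads. The authors quantified reads with Salmon (0.14.1) on GRCm38 with GENCODE M21 and deposited estimated counts per gene as whole numbers, in 1 table per batch. Strandedness of the counting was not given in the sources used here. Genes were tested where both tables held them and their counts averaged 10 or more per mouse, with edgeR (4.0.16, R 4.3.3; quasi-likelihood test, TMM, group and batch as terms, Benjamini-Hochberg adjustment over 16266 genes). "Normalized counts" are counts scaled by TMM library size, and log2 CPM used a prior count of 2. Groups came from the labels, and nothing was left out. All groups shared 1 fit. Pairs of genes were tested by 2-sided permutation within group and batch (100000 resamples). Scripts were tested on simulated data.

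The members, the other gene lists and the tests were chosen with earlier results of these data known. Named in full were *Mbp*, *Mog*, *Mag*, *Mobp*, *Cnp*, *Myrf*, *Sox10*, *Olig2*, *Pdgfra*, *Cspg4*, *Gpr17*, *Enpp6* and, per comparison, the 3 members with the smallest *p* in each direction. Named among non-members were the genes with the smallest *p* of the further oligodendrocyte list and the 10 most and 5 least alike genes, some of which are not reported here. Alternatives were DESeq2 (1.42.0), ComBat-seq (sva 3.50.0) before DESeq2, other scalings and filters, each batch alone, a replicate block and each mouse left out.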

Additional observations from a re-analysis of the deposited data

Results flagged for a closer look

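Within each drinking group, 72 sets of values (log2 CPM with the batch mean removed, for named members and stage means) were checked for 1 mouse far from the rest, and 7 were found. The nominal rate of this check is about 1 in 20 for separate sets. These sets move together and join 2 batches of unequal spread, so that rate is only a rough guide. *Ermn* was lowest in Chronic mouse 1 of the second batch at -0.43, where the next mouse was at -0.07. *Car2* was highest in Chronic mouse 39 at 0.21 (next 0.08), and *Nkx6-2* was highest in Chronic mouse 38 at 0.63 (next 0.17). The mean of the whole-lineage factors was also highest in Chronic mouse 38, at 0.28 (next 0.09). *Neu4* was highest in Acute mouse 2 of the second batch at 0.34 (next 0.14). *Enpp6* was lowest in Water mouse 43 at -0.66 (next -0.20), and so was the mean of the committed-stage genes, at -0.50 (next -0.00). Water mouse 43 also had the lowest mean of the mature members.

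*Opalin*, which encodes a membrane glycoprotein of oligodendrocytes, has counts in the table of the second batch alone and so entered no comparison over both batches. Its count there was 245.5 ± 31.1 in Water mice (SD, *n* = 6), 231 ± 52.5 in Acute mice (*n* = 5) and 250 ± 41.2 in Chronic mice (*n* = 6), with all 3 means within 1 SD of each other.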

How the results depend on the processing

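No member was called (DESeq2 gave some no adjusted *p*) under any of 10 alternatives or with any of the 28 mice left out, in any of the 3 comparisons. Over alternatives, 0 to 7 members were past an unadjusted *p* of 0.05 in Acute against Water and 0 to 3 in Chronic against Water. In Acute mice these were 3 with DESeq2 (9.4% of all genes), 1 with ComBat-seq (10.2%), 2 with RLE (9.47%) and 2 with upper quartile scaling (9.56%), 3 with no filter (7.54%), 0 with the stricter one (10.9%), 1 with only the groups compared (9.86%) and 1 with the block (8.55%). In Chronic mice they were 2 with ComBat-seq (11.1%), 1 with no filter (7.68%), 1 with only the groups compared (9.32%), 1 with the block (10.3%) and 0 with the others over both batches (10.2% to 12.6%). In Chronic against Acute, 1 was past it with ComBat-seq (4.96%), with only the groups compared (4.57%) and with the second batch alone (3.99%), and 0 with the others. *Olig1* was past it in 24 of 39 settings. The median log2 fold change of the members was 0.28 (Acute) and 0.30 (Chronic) with the first batch alone, and it ranged from 0.02 to 0.12 and from 0.02 to 0.09 with a mouse left out. Of 1975 values of named genes under alternatives, 1964 moved by less than the spread between mice, and the other 11 came from a batch alone. The lowest adjusted *p* among all 1975, from edgeR or DESeq2, was 0.0638.

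In the first and second batch alone, the median correlation was 0.77 and 0.48 over all members, 0.87 and 0.66 over mature pairs, 0.78 and 0.43 of mature with whole-lineage genes, and 0.46 of mature with committed-stage genes in the first. The first component took 70.9% and 53.4%. *Mog* with *Mbp* reversed to -0.15 in the first batch and was 0.36 with batch means removed only. *Mog* with *Sox10* was 0.49 in the second batch. *Gpr17* with *Neu4* was 0.45 as Spearman's rho, 0.88 and 0.38 in the first and second batch, and 0.41 (without Water mouse 43) to 0.69 (without Acute mouse 2) with a mouse left out. Apart from the last, these values did not pass permutation after adjustment over the 11 pairs, and of the 28 omissions only that of Water mouse 43 ended this call.

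With a replicate block on the mouse numbers of the second batch, medians were 0.10, 0.05 and -0.03 and no member was called. Of 16 same-numbered pairs, 4 deviated together with a correlation above 0.1 (median -0.01, from -0.35 to 0.34). The deviations gave no common sign of pairing, but they cannot exclude that the numbers pair the mice.

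Total counts differed little between mice. Whether the counts of *Mbp* in the first batch cover the same transcripts as in the second was not tested.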
